A study of Mus musculus with 4 samples.

Results

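Germ cells carry a set of genes that most somatic cells keep silent: the genes of meiosis, of the small-RNA defence against transposons and of the egg coat. Some of them are transcribed in mouse morulae, embryos at the stage before a blastocyst cavity forms. The genes described here were chosen by symbol alone, as every gene whose name begins with or equals 1 of a fixed set of germline symbols (such as Sycp, Tdrd, Tex, Spata, Zp or Dazl). The rule uses no measured value, but it was written with earlier results of these data known. Nxf2, Stag3, Ddx4, Dazl, Mov10l1 and Dmc1 are among the genes that stand in it as single symbols. The choice gave 78 of the 13658 genes analysed. By known role, 16 are genes of the piRNA pathway or of other RNA-binding factors. Another 12 belong to the synaptonemal complex, chromosome axis, telomere attachment and recombination, and 3 to meiotic cohesin. A further 4 act in germ cell transcription and entry into meiosis, 3 encode zona pellucida proteins, 18 carry Tex symbols, 14 Spata symbols, 7 Spag symbols, and 1, Ldhc, encodes a lactate dehydrogenase of sperm.

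Polyadenylated RNA was measured in 4 samples of wild-type mouse morulae. In 2 of them the fertilized eggs had been injected at the 1-cell stage with a non-targeting siRNA (siNT), and in the other 2 with an siRNA pool against Nr1h2 (siNr1h2), the gene of the oxysterol receptor LXRβ, each as 4 to 5 pL at 100 µM. They were kept in M16 medium until they reached the morula stage. The labels give neither the number of embryos per sample nor whether replicates were separate injections, so the p-values cover only the spread between these samples. What is analysed is the authors' comparison of siNr1h2 with siNT, which holds 1 mean, 1 fold change and 1 standard error per gene and no value per sample, so the depth of each sample is unknown. Nr1h2 itself was 5.03 times lower in siNr1h2 (95% interval 3.89 to 6.50). All 13 morula markers examined were measured, with mean normalized counts of 90.8 to 3621 per the authors' deposited table. Of these, Krt8 was lower (1.42 times, 95% interval 1.18 to 1.71) and 12 did not pass. Among those 12, Krt18 was lower at an unadjusted p under 0.05 (ratio of siNr1h2 to siNT 0.829, 0.691 to 0.995). Pou5f1 was higher at that threshold (ratio 1.35, 1.10 to 1.65). Of 13 sperm markers 0 were among the genes analysed. Of 16 cumulus and granulosa markers 6 were, with mean normalized counts of 1.94 to 694 per the authors' deposited table, and 0 of these passed (1 had an unadjusted p under 0.05 and was lower, 1 was higher). The mean of 694 belongs to Nr5a2, and the next highest, that of Amhr2, was 65.1. In such bulk samples fewer cells of a type and less RNA per cell cannot be told apart.

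In meiosis, cohesin rings with germline subunits hold sister chromatids together, axis proteins assemble along them, and the synaptonemal complex zips homologous chromosomes so that recombination can be completed. In parallel, PIWI proteins loaded with piRNAs find transposon transcripts, with Tudor-domain proteins and helicases as scaffolds and processing factors. Many promoters of these genes hold the E-box CACGTG, a letter sequence recognised by Mga and Max, which with E2f6 and Pcgf6 belong to a Polycomb complex known to silence germline genes in embryos and embryonic stem cells.

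The 250 bases before the start site are shown for the 3 genes that passed the test described below (Nxf2, Stag3 and Tex19.2), for Tex19.1 as the neighbouring paralogue of Tex19.2, and for Sycp3 as the most abundant of the 78 genes. The sequences are from RefSeq on GRCm38.p6, a later build than the mm9 of the submitters' notes, and lie at chrX:134964755-134965004 on the minus strand (Nxf2), chr5:138280259-138280508 on the plus strand (Stag3), chr11:121118678-121118927 on the minus strand (Tex19.2), chr11:121145893-121146142 on the plus strand (Tex19.1) and chr10:88459337-88459586 on the plus strand (Sycp3). They run 5′ to 3′ towards the start, and capitals mark CACGTG, which reads the same on both strands.
Nxf2: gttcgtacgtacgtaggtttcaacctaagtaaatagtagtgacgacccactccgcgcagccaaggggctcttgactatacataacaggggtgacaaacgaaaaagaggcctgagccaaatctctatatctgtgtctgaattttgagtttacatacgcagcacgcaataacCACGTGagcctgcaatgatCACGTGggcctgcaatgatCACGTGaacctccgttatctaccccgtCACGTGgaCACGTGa
Stag3: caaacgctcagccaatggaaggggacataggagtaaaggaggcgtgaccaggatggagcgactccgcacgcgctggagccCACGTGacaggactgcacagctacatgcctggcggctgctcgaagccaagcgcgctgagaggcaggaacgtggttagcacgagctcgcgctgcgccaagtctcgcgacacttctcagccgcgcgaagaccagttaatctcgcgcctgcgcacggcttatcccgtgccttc
Tex19.2: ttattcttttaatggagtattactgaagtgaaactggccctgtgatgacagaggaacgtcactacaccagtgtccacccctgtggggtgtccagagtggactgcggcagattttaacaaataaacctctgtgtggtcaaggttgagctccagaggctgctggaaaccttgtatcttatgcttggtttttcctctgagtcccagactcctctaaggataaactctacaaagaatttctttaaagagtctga
Tex19.1: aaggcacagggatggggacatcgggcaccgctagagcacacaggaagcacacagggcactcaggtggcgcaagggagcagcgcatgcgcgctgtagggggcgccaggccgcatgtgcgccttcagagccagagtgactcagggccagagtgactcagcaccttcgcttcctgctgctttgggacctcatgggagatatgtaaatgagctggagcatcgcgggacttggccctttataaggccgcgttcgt
Sycp3: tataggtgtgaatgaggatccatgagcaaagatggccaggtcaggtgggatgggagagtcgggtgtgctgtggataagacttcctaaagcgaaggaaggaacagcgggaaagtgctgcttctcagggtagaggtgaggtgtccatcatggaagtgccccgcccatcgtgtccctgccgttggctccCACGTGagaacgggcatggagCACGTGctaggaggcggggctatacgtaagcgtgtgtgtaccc

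The Nxf2 window holds 5 E-boxes, whose first bases lie 80, 61, 42, 15 and 7 bases before the start, and only 3 of 27025 mouse promoters in the table of sequences hold 5, the highest number found. The Stag3 window holds 1, 170 bases before the start, the Sycp3 window 2, at 64 and 43 bases, and those of Tex19.1 and Tex19.2 hold 0. The same window was found for 68 of the 78 genes, and 16 of them (23.5%) contain CACGTG, beside 8.39% of the 10769 analysed genes with such a window and 6.05% of all promoters of that length. More than 1 copy was found for 6 of the 68 (8.82%, against 0.891% of analysed genes): Nxf2, Sohlh1, Sycp3, Hormad1, Piwil1 and Tdrd9. Of the 17 members classed below as not particular to germ cells, a division made with the values known, 15 have such a window. CACGTG is in 0 of these 15, too few windows to set apart from the 8.39% of analysed genes. It is in 16 of the 53 windows of the other members (30.2%). The E2F core TCCCGC, on either strand, is in 27 of the 68 windows (39.7%) and in 29.5% of those of the analysed genes. By the same division, it is in 9 of the 15 windows of members not particular to germ cells (60%). In the 53 windows of the other members it is in 18 (34%), nearer the share of the analysed genes. The nuclear receptor core AGGTCA, on either strand, is in 9 (13.2% against 11%), and its direct repeat with a 4-base spacer, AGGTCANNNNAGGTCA, the arrangement liver X receptors prefer, is in 0 of the 68 and 0 of the 10769. The direct repeat contains the core, so the counts of these patterns overlap. These matches describe letters and say nothing of binding. Among members with an adjusted p, the median log2 fold change was -0.21 for the 12 with an E-box, of which Nxf2 and Stag3 were called, and 0.00 for the 43 without, of which Tex19.2 was called. Over all analysed genes 13 of 827 with an E-box (1.57%) and 163 of 8756 without (1.86%) were called, and both medians were 0.00. CpG dinucleotides were at a median of 0.674 of the number expected from base composition in the 68 windows and 0.717 in those of the analysed genes. The Nxf2 and Stag3 windows lie above this (1.08 and 1.06) and that of Tex19.2 below it (0.163).

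At an adjusted p under 0.05, as the authors' deposited table gives it, Nxf2 was lower in siNr1h2 morulae, and Stag3 and Tex19.2 were higher. Of the 78 genes, 63 had an adjusted p and 60 of these did not pass. The other 15 had mean normalized counts of at most 7.73 per the authors' deposited table. They hold an unadjusted p only, so they could not be called. The 3 called genes are 4.76% of the 63, beside 1.98% of all 12069 genes with an adjusted p (1.52% called lower and 0.456% called higher). A count of 3 is too small to set apart from that background, and the rule names 2 of the 3 genes singly. An unadjusted p under 0.05 was held by 14 of the 63 (22.2%), beside 13.3% of all genes. Of the 14, 10 were lower (15.9%, beside 7.31% of all genes) and 4 higher (6.35%, beside 5.97%). Among the 14, the rule names Ddx4, Dazl, Mov10l1 and Dmc1 singly, as well as Nxf2 and Stag3. Since the rule was written with earlier results known, these shares cannot be read as a trait of germline genes. The median log2 fold change of the 63 was -0.03, with a middle range from the lower to the upper quartile of -0.36 to 0.39, and that of all genes with an adjusted p was 0.00, with -0.20 to 0.22. Of the 63, 35 (55.6%) lay below 0, beside 49.4% of all genes. The median standard error was 0.32 for the 63 and 0.23 for all genes. Among genes with a mean of at least 50, the quartiles were -0.32 and 0.23 for 38 members and -0.17 and 0.17 for all genes, with median standard errors of 0.20 and 0.18.

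**Figure D1:**
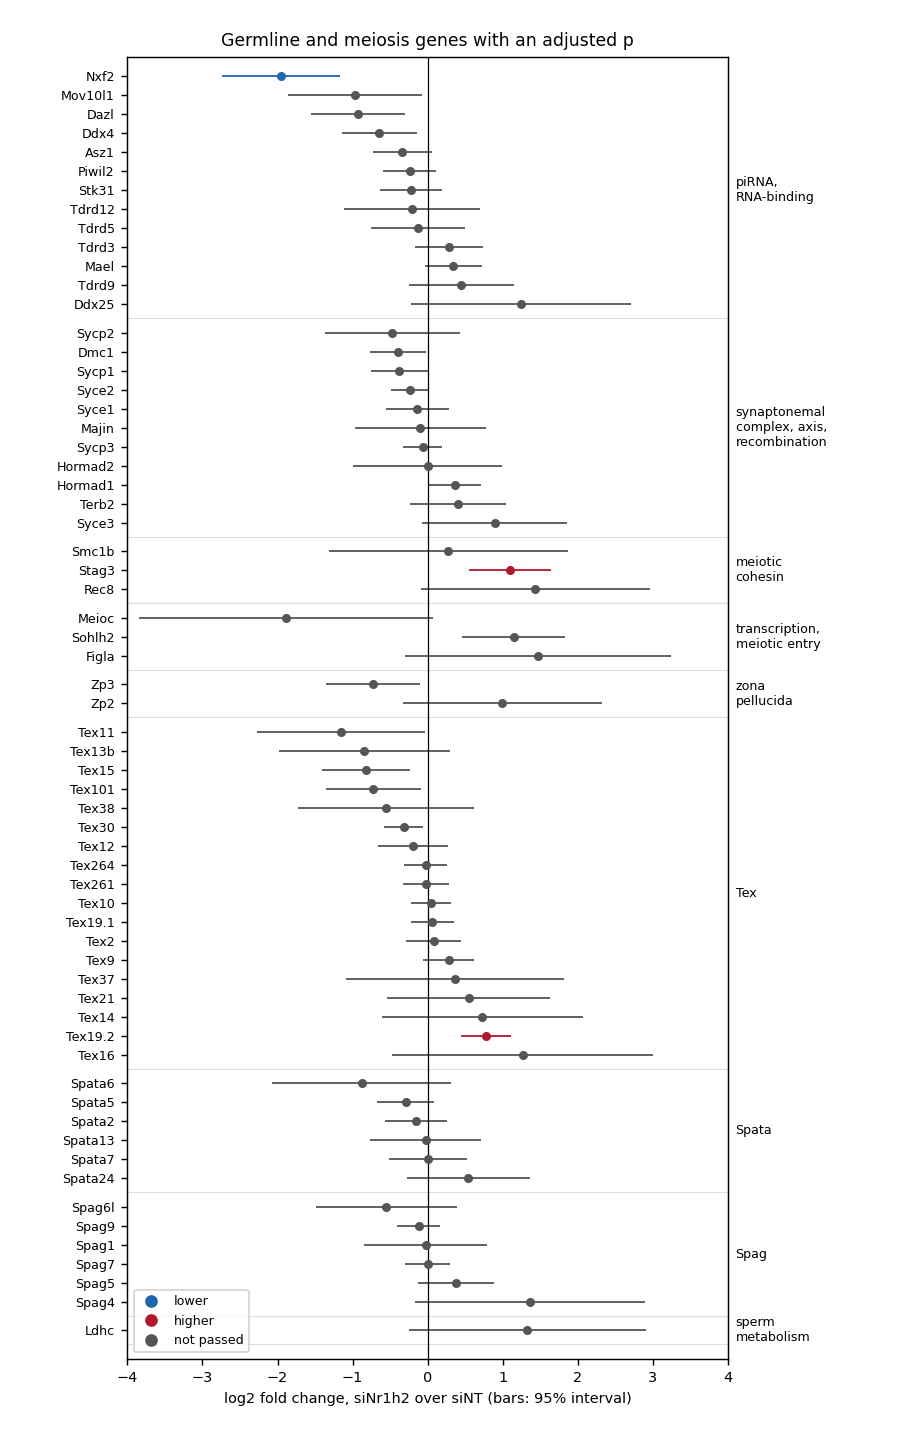
Deposited log2 fold change (siNr1h2 over siNT, horizontal axis) of the 63 genes with an adjusted p, by role, with 95% intervals of 1.96 standard errors. Nxf2 lies on the left in blue, Stag3 and Tex19.2 on the right in red, and the 60 genes in grey did not pass.

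Levels differed widely among the 78 genes, and with them the size of change that could be called. Per kilobase of exon, the synaptonemal complex gene Sycp3 stood highest at a mean normalized count of 2150, above 96.6% of the analysed genes, followed by Spag7 (1142), Tex30 (1011), Tex19.1 (936) and Syce2 (665). At the other end Spata17 and Spata33 had 0.702 and 0.688 per kilobase. Unscaled means per the authors' deposited table ran from 1.75 for Spata25 to 2718 for Sycp3, and the 5 most abundant of the 78 held 48.3% of their summed mean. A mean of at least 50 was reached by 38 of the 78. At the precision of this comparison a change of 1.39 times was needed for a call in the median member with a mean of 500 or more (9 genes), 1.72 times between 50 and 500 (29 genes) and 3.95 times below 50 (25 genes). A change of 2 times could have been called for 29 of the 63. Among the 25 genes with an adjusted p and means below 50, 0 were called (DESeq2 test of the authors, 2 with an unadjusted p under 0.05), and the change needed for a call ranged from 2.60 to 9.76 times.

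**Figure D2:**
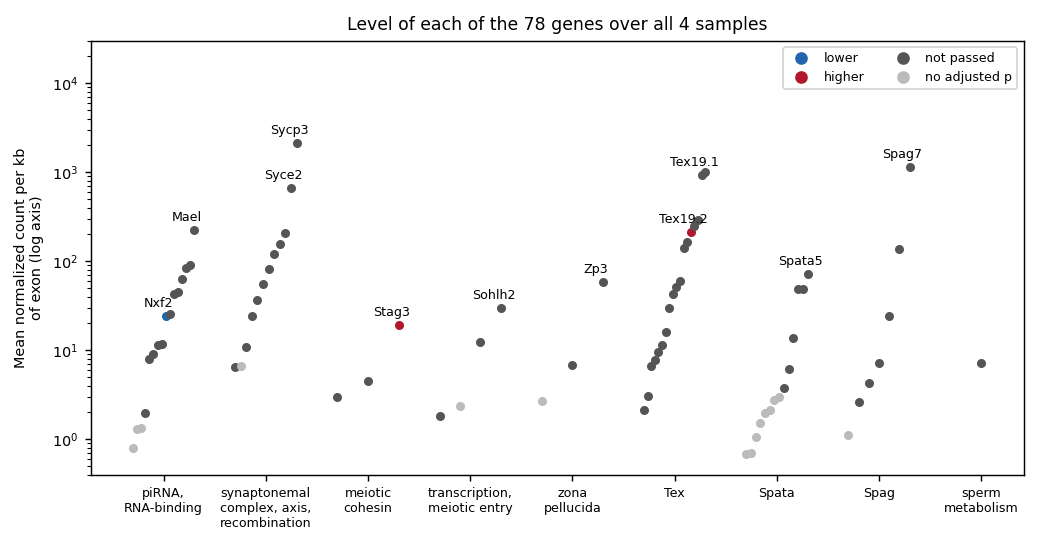
Mean normalized count per kilobase of exon (log axis) of each of the 78 genes over all 4 samples, by role, coloured by the result of the test. Sycp3 stands highest at 2150, and the called genes Nxf2 and Tex19.2 are at 24.3 and 215.

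Among the 16 genes of the piRNA pathway and RNA handling, Nxf2 was lower and 12 others did not pass, while Piwil1, Tdrd1 and Tdrd7 had no adjusted p. Nxf2 is a germ cell paralogue of the mRNA export receptor gene Nxf1. Its mean normalized count was 62.3 per the authors' deposited table, which with the fold change gives group means of 99.1 in siNT and 25.6 in siNr1h2. The gene was thus 3.88 times lower (95% interval 2.25 to 6.66), with an adjusted p of 0.000277 per the authors' deposited table. Counting error expected from these means equals 32.2% of its squared standard error. The remainder corresponds to a coefficient of variation of 22.8% as modelled in that error. Members of similar mean had similar values (Tdrd9 21.1%, Sohlh2 20.5%). With no value per sample, the spread of Nxf2 itself between replicates was not seen. Of the remaining 12 with an adjusted p, 8 lay below 0 and 4 above, and the median of the group was -0.23.

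Of the other germline RNA-binding genes, 3 had an unadjusted p under 0.05 and were lower, without passing the adjusted test. Dazl, a translational regulator that germ cells need to develop, had group means of 127 in siNT and 67.0 in siNr1h2, a ratio of siNr1h2 to siNT, as in all ratios here, of 0.526 (95% interval 0.342 to 0.810) with an adjusted p of 0.105 per the authors' deposited table. Dazl passed when fold changes were centred on ribosomal protein genes (adjusted p = 0.0319). Ddx4, the Vasa helicase of germ granules, had means of 166 and 106, a ratio of 0.639 (0.452 to 0.904). Mov10l1, the helicase that feeds piRNA precursors into processing, had means of 50.6 and 25.9, a ratio of 0.512 (0.276 to 0.948). The adjusted p-values of Ddx4 and Mov10l1 were 0.203 and 0.321 per the authors' deposited table. More abundant piRNA genes had intervals that include 1. Mael, a transposon-silencing factor, had means of 339 in siNT and 430 in siNr1h2 (ratio 1.27, 0.977 to 1.64), and Piwil2, the PIWI protein MILI, 366 and 309 (ratio 0.846, 0.662 to 1.08). Asz1, which sits at the mitochondria-bound granules where piRNAs are made, had 289 and 228 (0.791, 0.603 to 1.04), and the Tudor-domain kinase-like gene Stk31 293 and 250 (0.855, 0.642 to 1.14). Among Tudor-domain genes with an adjusted p, Tdrd3, Tdrd9, Tdrd5 and Tdrd12 had log2 fold changes of 0.29, 0.45, -0.13 and -0.21 per the authors' deposited table, with standard errors of 0.23 to 0.46. Of these, Tdrd3 is not particular to germ cells. The testis helicase gene Ddx25 had the highest fold change of the group (log2 1.25 ± 0.75 SE per the authors' deposited table) at a mean of 13.7, and did not pass.

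None of the 12 genes of the synaptonemal complex, chromosome axis, telomere attachment and recombination passed, of which 11 had an adjusted p (DESeq2 test of the authors; 1 lower and 1 higher at an unadjusted p under 0.05). The median log2 fold change was -0.10, with 8 below 0 and 3 above. Sycp3, the lateral element protein, had group means of 2781 in siNT and 2655 in siNr1h2, and its 95% interval of 0.796 to 1.15 leaves out a change of 1.3 times in either direction. Syce2, of the central element, had 1416 and 1202 (ratio 0.849, 0.711 to 1.01), and its partner Tex12 had 178 and 155 (0.871, 0.631 to 1.20). The transverse filament gene Sycp1 had 329 and 253 (0.770, 0.590 to 1.00) and the central element gene Syce1 237 and 215 (0.908, 0.679 to 1.22). These 5 complex genes had point estimates below 1, with intervals that include 1. Syce3, another central element gene, lay on the other side with 21.6 and 40.0 (1.86, 0.948 to 3.63) and Sycp2, the lateral element partner of Sycp3, had 45.4 and 32.8 (0.722, 0.387 to 1.35).

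The genes of this group with an unadjusted p under 0.05 were Dmc1 and Hormad1, and they lay on opposite sides of 0. Dmc1, the meiotic recombinase, had means of 335 in siNT and 255 in siNr1h2 (ratio 0.761, 95% interval 0.588 to 0.986) and Hormad1, an axis protein that monitors pairing, 312 and 400 (1.28, 1.01 to 1.64). Their adjusted p-values were 0.345 and 0.367 per the authors' deposited table. The telomere attachment genes Terb2 and Majin had log2 fold changes of 0.41 ± 0.33 (SE) and -0.10 ± 0.44 per the authors' deposited table. Hormad2 stood at 0.00 ± 0.51 per the authors' deposited table.

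Of the 3 meiotic cohesin genes, Stag3 was higher and Rec8 and Smc1b did not pass. Stag3 encodes the STAG subunit of cohesin in meiosis, where it takes the place that Stag1 and Stag2 have in dividing somatic cells. Its group means were 70.1 in siNT and 149 in siNr1h2, so that it was 2.13 times higher (95% interval 1.46 to 3.11, adjusted p = 0.00991 per the authors' deposited table). Rec8, the kleisin of the same complex, had a ratio of 2.71 (0.941 to 7.77), and Smc1b, a germline SMC subunit, one of 1.21 (0.401 to 3.66). Both intervals include 1 and include the Stag3 ratio. The general subunit Stag2 was lower, with means of 6435 and 4560 (1.41 times, 1.18 to 1.69, adjusted p = 0.0146 per the authors' deposited table). Stag1, Rad21 and Smc1a had log2 fold changes of 0.21, -0.15 and 0.07 per the authors' deposited table and did not pass. Stag2 is X-linked, and with X-linked genes centred apart, an alternative chosen after seeing the data, it did not pass (adjusted p = 0.123). RefSeq models of Stag3 overlap those of Gal3st4 and Gpc2, and the kit does not mark strand. Gal3st4 had a mean of 8.46 and a log2 fold change of -1.27 ± 0.94 (SE) per the authors' deposited table, and Gpc2 was not analysed here.

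Among transcription factors and regulators of meiotic entry, Sohlh2 came closest to a call. It encodes a helix-loop-helix factor of early spermatogonia and oocytes, and had group means of 43.9 in siNT and 97.2 in siNr1h2 (2.21 times, 95% interval 1.38 to 3.56, adjusted p = 0.0516 per the authors' deposited table). Sohlh2 passed when genes with a mean under 50 were left out (adjusted p = 0.0452) or fold changes were centred on genes with a mean of at least 500 (adjusted p = 0.0427). Its dimer partner Sohlh1 had no adjusted p, at a mean of 3.05 per the authors' deposited table. Figla, the oocyte factor that switches on zona genes, had means of 5.48 and 15.1 (2.77, 0.810 to 9.44), and Meioc, which holds germ cells in the meiotic programme, 13.4 and 3.61 (0.270, 0.0697 to 1.05). Neither passed, and at such levels the intervals span more than 10 times.

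The 3 zona pellucida genes, whose proteins form the coat that oocytes secrete, did not pass. Zp3 had an unadjusted p under 0.05 and group means of 97.4 in siNT and 58.8 in siNr1h2 (ratio 0.604, 95% interval 0.392 to 0.930, adjusted p = 0.276 per the authors' deposited table). Zp2 had 12.4 and 24.7 (1.99, 0.793 to 4.99), on the other side of 1, and Zp1 had no adjusted p. Of 15 other oocyte genes analysed, 14 had an adjusted p and 0 were called, by the DESeq2 test of the authors. Of the 14, 10 (71.4%, beside 49.4% of all genes) lay below 0, with a median log2 fold change of -0.16. Bmp15, an oocyte growth factor, and Dppa3, a maternal factor with the highest mean of the whole table, had an unadjusted p under 0.05 and were lower, with ratios of 0.374 (0.153 to 0.912) and 0.838 (0.721 to 0.973). Gdf9, the partner of Bmp15, had a log2 fold change of -0.14 ± 0.73 (SE) per the authors' deposited table.

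Of the 18 genes with Tex symbols, Tex19.2 was higher, 17 did not pass and the median log2 fold change was 0.01. The name marks only first detection in testis, and its bearers differ widely in what they do. Tex19.2 and Tex19.1 are adjacent protein-coding genes on chromosome 11, paralogues of a mammalian family expressed in germ cells, pluripotent cells and placenta. Tex19.1 is known to restrain retrotransposons. Tex19.2 had group means of 325 in siNT and 555 in siNr1h2, 1.71 times higher (95% interval 1.35 to 2.15, adjusted p = 0.00139 per the authors' deposited table). Tex19.1 had 1714 and 1791, a ratio of 1.04 with an interval of 0.858 to 1.27 that lies wholly below that of Tex19.2. The difference between the paralogues was not tested, since that needs values per sample. Per kilobase, Tex19.1 was at 936 and Tex19.2 at 215. The flanking genes Uts2r, Ogfod3 and Hexdc had log2 fold changes of 0.59, 0.10 and 0.04 per the authors' deposited table and did not pass. Sectm1a, next to Tex19.2, had 2.22 ± 1.14 (SE) at a mean of 6.87, with no adjusted p, per the authors' deposited table. Reads that fit both paralogues could be shared between them, and how such reads were treated is not given in the sources used here.

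In the other Tex genes with an unadjusted p under 0.05, siNr1h2 was lower in each, and 0 of these passed the adjusted test of DESeq2. Tex15, needed for silencing of transposons in male germ cells, had group means of 141 in siNT and 79.3 in siNr1h2 (ratio 0.564, 95% interval 0.376 to 0.845), and Tex101, a surface protein needed for sperm fertility, 105 and 63.8 (0.606, 0.391 to 0.938). Tex11, an X-linked gene of crossover formation, had 33.5 and 15.1 (0.450, 0.207 to 0.980), and Tex30 2164 and 1731 (0.800, 0.669 to 0.956). Their adjusted p-values were 0.137, 0.286, 0.362 and 0.226 per the authors' deposited table. With fold changes centred on ribosomal protein genes, Tex15 and Tex30 passed (adjusted p = 0.0440 and 0.0303). Of low-count germ cell genes, Tex14, which keeps intercellular bridges open, had a log2 fold change of 0.73 ± 0.68 (SE) per the authors' deposited table. Tex2 and Tex9, which were more abundant and are not particular to germ cells, had 0.08 and 0.28 per the authors' deposited table. Tex38, Tex21 and Tex37, with means of 13.2 to 23.9, had -0.56, 0.54 and 0.36 per the authors' deposited table.

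**Figure D3:**
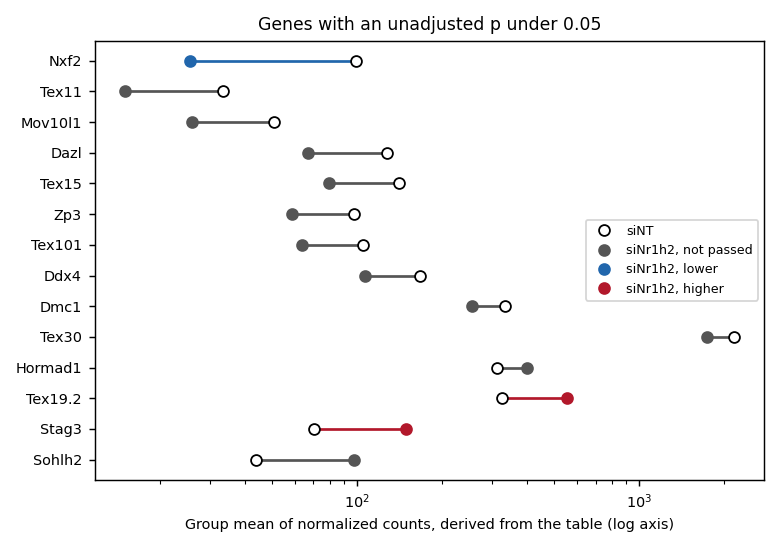
Group means of normalized counts (log axis), derived from the deposited mean and fold change, of the 14 genes with an unadjusted p under 0.05. Open circles are siNT and filled circles siNr1h2. Nxf2 falls from 99.1 to 25.6, and Stag3 and Tex19.2 rise to 149 and 555.

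Not every gene named for testis or sperm is a germline gene, and the label fits only part of the set. By known role, 17 of the 78 were classed as working in many cell types, a division made by judgement and with the values known. The other members were not all shown to be confined to germ cells. Among them, Tex10, a nuclear factor of ribosome maturation and pluripotency, Tex264, a receptor for autophagy of the endoplasmic reticulum, and Tex261 had log2 fold changes of 0.04, -0.03 and -0.02 per the authors' deposited table. Spag7, Spag9, a scaffold of kinase and motor proteins, and Spag5 (astrin), a spindle protein, had 0.00, -0.12 and 0.38 per the authors' deposited table. Spata2, an adaptor of the deubiquitinase CYLD, and Spata5, a ribosome maturation ATPase, had -0.15 and -0.30 per the authors' deposited table. Of the 17, 15 had an adjusted p and 0 were called by DESeq2 (1, Tex30, at an unadjusted p under 0.05), with log2 fold changes between -0.32 and 0.38. The other 61 had a range of -1.95 to 1.47 over 48 genes with an adjusted p. Their median mean count was 30.8, against 276 for the 17, and their median standard error 0.41, against 0.18.

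The Spata, Spag and Ldhc genes gave no call, and 9 of these 22 had no adjusted p. None of the 6 Spata and 6 Spag genes with an adjusted p had an unadjusted p under 0.05 in the DESeq2 test. Ldhc had group means of 6.51 in siNT and 16.3 in siNr1h2 (ratio 2.51, 95% interval 0.838 to 7.51). Spag4, a nuclear envelope protein of spermatids, had 7.10 and 18.3 (2.57, 0.889 to 7.43), and Spag6l, of the axoneme, 38.7 and 26.4 (0.683, 0.355 to 1.31). Spata24, Spata6, Spata7 and Spata13 had log2 fold changes of 0.54, -0.88, 0.01 and -0.02, and Spag1 had -0.03, per the authors' deposited table. The genes without an adjusted p here were Spata2l, Spata1, Spata5l1, Spata22 (which acts in meiotic recombination), Spata33, Spata4, Spata17, Spata25 and Spag16. Elsewhere in the set they were Syce1l, Sohlh1, Zp1, Piwil1, Tdrd7 and Tdrd1.

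Nxf2, Tex11, Tex13b and Tex16 are X-linked, and 3 of these 4 lay below 0. X-linked genes as a whole lay lower than autosomal ones: of 441 with an adjusted p, 63.0% were below 0, with a median log2 fold change of -0.12, and 19 were called lower and 1 higher. Of 11606 autosomal genes, 48.9% were below 0, with a median of 0.01, and 164 were called lower and 53 higher. Of 10 sex-linked transcripts examined, 1 passed. The Y-linked gene Kdm5d was higher at group means of 8.96 and 37.9 (4.23 times, 95% interval 1.86 to 9.61, adjusted p = 0.0372 per the authors' deposited table). Ddx3y, Eif2s3y and Uty had log2 fold changes of 0.33, 0.26 and 0.23, and Xist 0.12, per the authors' deposited table, and did not pass. Among the X-linked transcripts examined, Tsix and Kdm5c (0.41 and 0.47) and Ddx3x and Kdm6a (-0.24 and -0.30) had an unadjusted p under 0.05. Eif2s3x had -0.25, and none of these passed. The part of these differences in the X-linked values was not tested. With X-linked and other genes each centred on their own median, an alternative chosen after seeing the data, Nxf2 stayed lower (adjusted p = 0.00111). Tex13b and Tex16 had log2 fold changes of -0.84 ± 0.58 (SE) and 1.27 ± 0.89 per the authors' deposited table.

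**Figure D4:**
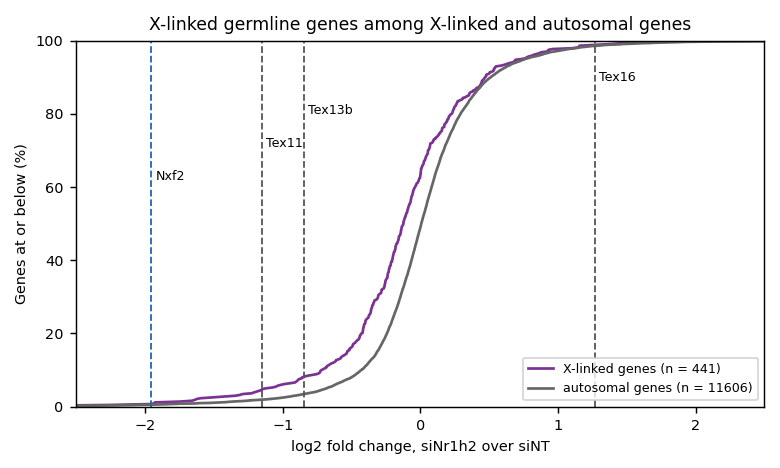
Share of genes (vertical axis, percent) at or below each log2 fold change (siNr1h2 over siNT) for 441 X-linked and 11606 autosomal genes with an adjusted p. Dashed lines mark Nxf2, Tex11, Tex13b and Tex16, of which Nxf2 lies farthest left at -1.95.

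Genes listed for a role in meiosis, transposon silencing or germ cells, but outside the symbols that chose the set, gave 4 calls, all lower. Not all listed genes are particular to germ cells, and the general cohesin subunit Stag2 is 1 of the 4. Of 30 further meiosis genes analysed, 2 were lower and 26 did not pass, and the remaining 2 lacked an adjusted p. The calls are 7.14% of those with an adjusted p, beside 1.52% of all genes called lower, and these genes had a median log2 fold change of -0.14. The called genes were Stag2, described above, and Boll, a relative of Dazl, with group means of 23.4 in siNT and 2.79 in siNr1h2 (ratio 0.119, 95% interval 0.0351 to 0.406, adjusted p = 0.0406 per the authors' deposited table). Of 18 further piRNA and transposon-silencing genes, 0 were called by the DESeq2 test, and 0 had an unadjusted p under 0.05. The smallest p-values there belonged to Exd1 and Mov10, with log2 fold changes of -0.76 ± 0.43 (SE) and -0.50 ± 0.29 per the authors' deposited table. Of 25 other germ cell genes, 2 were lower and 19 did not pass, and the remaining 4 lacked an adjusted p (9.52% of those tested called lower). These were Spz1, a spermatogenic leucine zipper gene whose fall was known when the list was written (8.33 times lower, 4.81 to 14.4), and the X-linked homeobox gene Rhox9 (1.88 times lower, 1.41 to 2.51). Their adjusted p-values were 3.91e-11 and 0.00341 per the authors' deposited table.

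Repressors that keep germline genes silent in other cells were measured as well, in a list of 21. Of these 2 were lower (9.52%, beside 1.52% of all genes), 0 higher and 19 did not pass. Yaf2, a Polycomb accessory subunit, had group means of 409 in siNT and 245 in siNr1h2 (ratio 0.599, 95% interval 0.466 to 0.771), and Rnf2 (Ring1b), the catalytic ubiquitin ligase, 2046 and 1512 (0.739, 0.619 to 0.882). Their adjusted p-values were 0.00835 and 0.0443 per the authors' deposited table. Rnf2 did not pass when fold changes were centred on genes with a mean of at least 500 (adjusted p = 0.0820). Ring1, the paralogue of Rnf2, had 40.2 and 89.8 (2.23, 1.36 to 3.66, adjusted p = 0.0613 per the authors' deposited table). The subunits Mga, Max, E2f6, Pcgf6 and L3mbtl2 had log2 fold changes of -0.31, 0.04, -0.01, -0.21 and 0.06 per the authors' deposited table and did not pass. Mga was lower at an unadjusted p under 0.05 (ratio 0.807, 95% interval 0.663 to 0.982). Kdm5c of the same list was higher at that threshold (1.39, 1.01 to 1.90) and did not pass. The DNA methyltransferase genes Dnmt1, Dnmt3a and Dnmt3b had 0.19, -0.20 and 0.06 per the authors' deposited table and did not pass either.

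For 10 of the 78 genes, another gene of the table overlaps on the opposite strand in the GENCODE annotation, among them Sycp3 (with Chpt1), Syce2 (Gcdh), Tex12 (Il18), Tex10 (Invs), Spata5 (Nudt6) and Tex9 (Mns1). The library kit does not mark strand, so the reads of such pairs cannot be told apart where they overlap, and these levels are uncertain. Nxf2, Stag3 and Tex19.2 are not among the 10 in that annotation, but RefSeq models of Stag3 overlap Gal3st4, as described above.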

How the data were processed

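Polyadenylated RNA of 4 morula samples (2 siNT, 2 siNr1h2) was made into libraries with SMART-Seq v4 and Nextera XT, per the labels' protocols. The submitters' processing notes name STAR, HTSeq 0.12.4, RSEM, Cufflinks 2.2.1, edgeR, DESeq2 and the build mm9, with no role or order. The data are 1 deposited table of the authors' comparison, with DESeq2 column names per the file headers. It gives the deposited mean normalized count (a signal value), the log2 fold change with its standard error as deposited, a deposited score (the Wald statistic) and, also deposited, the raw p-value and its adjusted form. The deposited adjusted p equalled the Benjamini-Hochberg value over 12069 genes.

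From these, folds with 95% intervals (1.96 standard errors), group means (the 2 values whose average is the deposited mean and whose ratio is the fold), counting error expected from those means with 2 replicates per group, and counts of calls at an adjusted p under 0.05 were computed (Python 3.11.15, pandas 2.3.3, scipy 1.17.1). Group means assume samples of equal weight. No test per gene was refitted, and the columns with values of single samples that were set aside number 0. Exon lengths (GENCODE M21) and chromosomes (RefSeq, GRCm38.p6) were matched by symbol for all 78 members. Promoter windows are the 250 bases before the first start listed in RefSeq. The calling code was tested on simulated data. Alternatives were other thresholds, filters, adjustments, scalings and member sets.

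The members and lists were chosen with earlier results of these data known. Genes named are members with an adjusted or unadjusted p under 0.05, the most abundant overall and per role, the Tex19 paralogues, Nr1h2, and the called and smallest-p genes of the other lists. Further members, subunits, markers and flanking genes were named after their values were seen, to account for each role.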

Additional observations from a re-analysis of the deposited data

How the results depend on the processing

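Nxf2 was called lower under all 9 settings of threshold, filter, adjustment and scaling, of which centring X-linked genes apart was chosen after seeing the data, as were the E-box, broad-role and minimum-of-20 alternatives. Stag3 and Tex19.2 were called higher under 8 of them and missed only with Holm adjustment (1.000 and 0.0731), which left 0 higher members. Without Tex, Spata and Spag symbols 1 higher member was left. Centring on ribosomal protein genes, whose median log2 fold change was 0.11, lowers every value by that amount; it gave 4 lower members, adding Dazl, Tex15 and Tex30. Over all genes, 458 were then lower and 36 higher, against 184 and 55. An adjusted p under 0.01 gave 92 lower and 17 higher genes, under 0.1 there were 125 higher, and Holm adjustment left 48 and 1. With any listed start in place of the first, 25% of members had an E-box, against 23.5%. The median of the members stayed between -0.14 and 0.01, against -0.03.

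In the other lists, lower meiosis genes numbered 2, and 0 at 0.01 and with Holm adjustment, and 1 with a fold of at least 1.5, with means of at least 50 or with X-linked genes centred apart. Lower repressors numbered 2, and 1 at 0.01, with a fold of at least 1.5, without the count filter or centred on genes with means of at least 500, and 0 with Holm adjustment; 1 was higher at 0.1. Lower germ cell genes numbered 2, 1 with Holm adjustment and 4 with ribosomal centring, where 1 oocyte gene was lower. The cause of these shifts was not tested. Of 67 alternatives of counts above 0, 45 stayed within 1.5 times of the reported count. Of 63 for counts at 0, which could hardly move, 61 stayed at 0.

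No paired analysis was possible because the table holds no value per sample. For the same reason leaving out replicates was not run.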
